A study of Mus musculus with 8 samples.

Results

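The genes for VEGF receptors and VEGF ligands were examined in a map of SMAD4 binding in mouse endothelial cells. The set has 7 of the 21887 protein-coding genes on the assembled mouse chromosomes, 3 receptor genes (Kdr, Flt1 and Flt4) and 4 ligand genes (Vegfa, Vegfb, Vegfc and Pgf). A SMAD4 peak was assigned to a gene when its summit lay inside the gene body (RefSeq, mm10) or at most 100 kb outside it, and it was marked when that gene was the nearest protein-coding gene. In the stimulated list 17 peaks met the rule and in the unstimulated list 6, out of 4324 and 1130 peaks outside mitochondrial DNA.

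The cells were MS1, an established line of mouse pancreatic islet endothelium immortalised with SV40 large T antigen, so the map describes 1 line in culture. All cultures were starved of serum for 24 h. The stimulated groups then received recombinant BMP9/10 at 1 ng/mL and the unstimulated groups fresh medium; the labels give no exposure time and do not say whether both ligands were added together at that dose. Each of the 4 groups had 2 libraries: SMAD4 immunoprecipitate (IP) and input DNA of stimulated cells, and SMAD4 IP and input DNA of unstimulated cells. Stimulated IP libraries carry the letters KD in their titles, which no label explains. The authors merged the 2 IP libraries of a condition before peak calling, which left 41044888 IP tags for the stimulated list and 52971023 for the unstimulated one. Each peak therefore has 1 pooled value and no replicate error, and intervals cover counting error only.

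VEGF ligands are secreted dimers that act through receptor tyrosine kinases on endothelial cells. VEGF-A signals mainly through VEGFR2, the product of Kdr. VEGFR1, the product of Flt1, binds VEGF-A, VEGF-B and placental growth factor (Pgf) and limits the VEGF-A that reaches VEGFR2. VEGF-C acts through VEGFR3, the product of Flt4, in lymphatic and sprouting endothelium. BMP9 and BMP10 bind ALK1 on endothelial cells, and SMAD4 joins the SMAD proteins that this receptor activates.

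No SMAD4 peak of either list lay over the start of any of the 7 genes. The start window of a gene, from 250 bases before to 50 after a start listed by RefSeq, was overlapped by a stimulated peak at 3.14% of 17492 protein-coding genes and by an unstimulated peak at 0.56%. The 250 bases before the listed start of the 3 receptor genes are shown as the start regions of the receptors, over which neither list had a peak. They come from RefSeq (GRCm38.p6) and run 5′ to 3′ along the transcribed strand. The Kdr and Flt1 stretches lie inside the annotated gene bodies, whose 5′ ends are further out, at 75979072 and 147726438. Capitals mark letters that SMAD proteins are known to bind (GTCT or its complement AGAC, the palindrome GGCGCC, and GGAGCC or its complement GGCTCC).
Kdr (chr5:75978456-75978705, minus strand): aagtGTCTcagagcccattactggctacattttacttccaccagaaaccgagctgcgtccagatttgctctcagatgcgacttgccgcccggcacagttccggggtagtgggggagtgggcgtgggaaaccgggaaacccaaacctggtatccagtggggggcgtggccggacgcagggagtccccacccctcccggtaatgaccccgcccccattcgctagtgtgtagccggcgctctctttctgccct
Flt1 (chr5:147726012-147726261, minus strand): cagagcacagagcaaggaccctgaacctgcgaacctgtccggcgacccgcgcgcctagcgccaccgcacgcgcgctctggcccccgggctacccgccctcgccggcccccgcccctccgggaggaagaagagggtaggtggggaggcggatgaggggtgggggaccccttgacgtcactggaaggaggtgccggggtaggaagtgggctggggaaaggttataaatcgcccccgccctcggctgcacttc
Flt4 (chr11:49609429-49609678, plus strand): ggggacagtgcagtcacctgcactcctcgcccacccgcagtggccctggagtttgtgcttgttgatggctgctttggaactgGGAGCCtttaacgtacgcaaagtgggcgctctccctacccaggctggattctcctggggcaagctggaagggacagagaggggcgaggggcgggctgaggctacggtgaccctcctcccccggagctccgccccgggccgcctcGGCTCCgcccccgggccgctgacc

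The Kdr stretch held GTCT at 1 place, the Flt1 stretch held none of these letters, and the Flt4 stretch held GGAGCC at 1 place and GGCTCC at 1. Among 21263 such stretches of protein-coding genes, 81.6% held GTCT or AGAC, 29.3% GGAGCC or GGCTCC and 12.3% GGCGCC. The longer CAGAC or GTCTG, which contains AGAC or GTCT, was in 40.9% of them and in none of the 3 shown. The ETS core letters GGAA or TTCC were in 93.2%, with 4 matches each before Kdr and Flt1 and 2 before Flt4. Of the ligand genes, the stretch before the outermost start of Vegfa held 3 matches of GTCT or AGAC, of which 2 lay in the longer CAGAC or GTCTG, and 2 of GGAGCC or GGCTCC. The outermost start of Pgf had 2 matches of GTCT or AGAC before it, that of Vegfb 1 of GGAGCC or GGCTCC, and that of Vegfc held 1 GGCGCC and 4 of GGAGCC or GGCTCC. These are matches of letters, and none of these stretches had a peak. The genome sequence under the peaks was not used here.

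The next comparison asked which of the 7 genes had SMAD4 peaks in their surroundings with and without added ligand. In the stimulated list 5 of the 7 genes had a peak in the window (Kdr, Flt1, Flt4, Pgf and Vegfb), and in the unstimulated list 4 had (Kdr, Flt1, Pgf and Vegfb). Over all protein-coding genes the shares were 36.5% in the stimulated and 13.1% in the unstimulated list. As the nearest protein-coding gene to a peak within 100 kb, 4 of the 7 stood in the stimulated list (Kdr, Flt1, Flt4 and Pgf) and 3 in the unstimulated list (Kdr, Flt1 and Pgf), against 12.2% and 3.79% of all protein-coding genes. All 3 receptor genes were nearest to a stimulated peak, and of the 4 ligand genes only Pgf was. With so few genes, chosen with earlier results of these data known, these shares are a description and were not tested.

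The receptor genes held 10 of the 17 stimulated and 4 of the 6 unstimulated peaks. Kdr had 7 stimulated and 2 unstimulated peaks, Flt1 had 2 and 2, and Flt4 had 1 and 0. Among the ligand genes, Pgf had 5 stimulated and 1 unstimulated peaks and Vegfb had 2 and 1. Vegfa and Vegfc had no peak of either list in their windows. The stimulated list is the longer one. Shortened by −log10 q to the length of the unstimulated list, it held 1130 of its 4324 peaks. Of the 17 around these genes it kept 4, 3 at Kdr and 1 at Flt1, against 6 unstimulated peaks. At equal list length the counts were thus 3 against 2 at Kdr, 1 against 2 at Flt1, and 0 against 1 at Pgf and at Vegfb. These counts reflect which peaks passed a cut by rank and do not show a fall in binding. The shared Flt1, Pgf and Vegfb sites lost in the cut had more tags over the summit, relative to all IP tags, in the stimulated list. The ratios were 1.20, 1.25 and 1.56, with counting intervals that included 1.

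**Figure D1:**
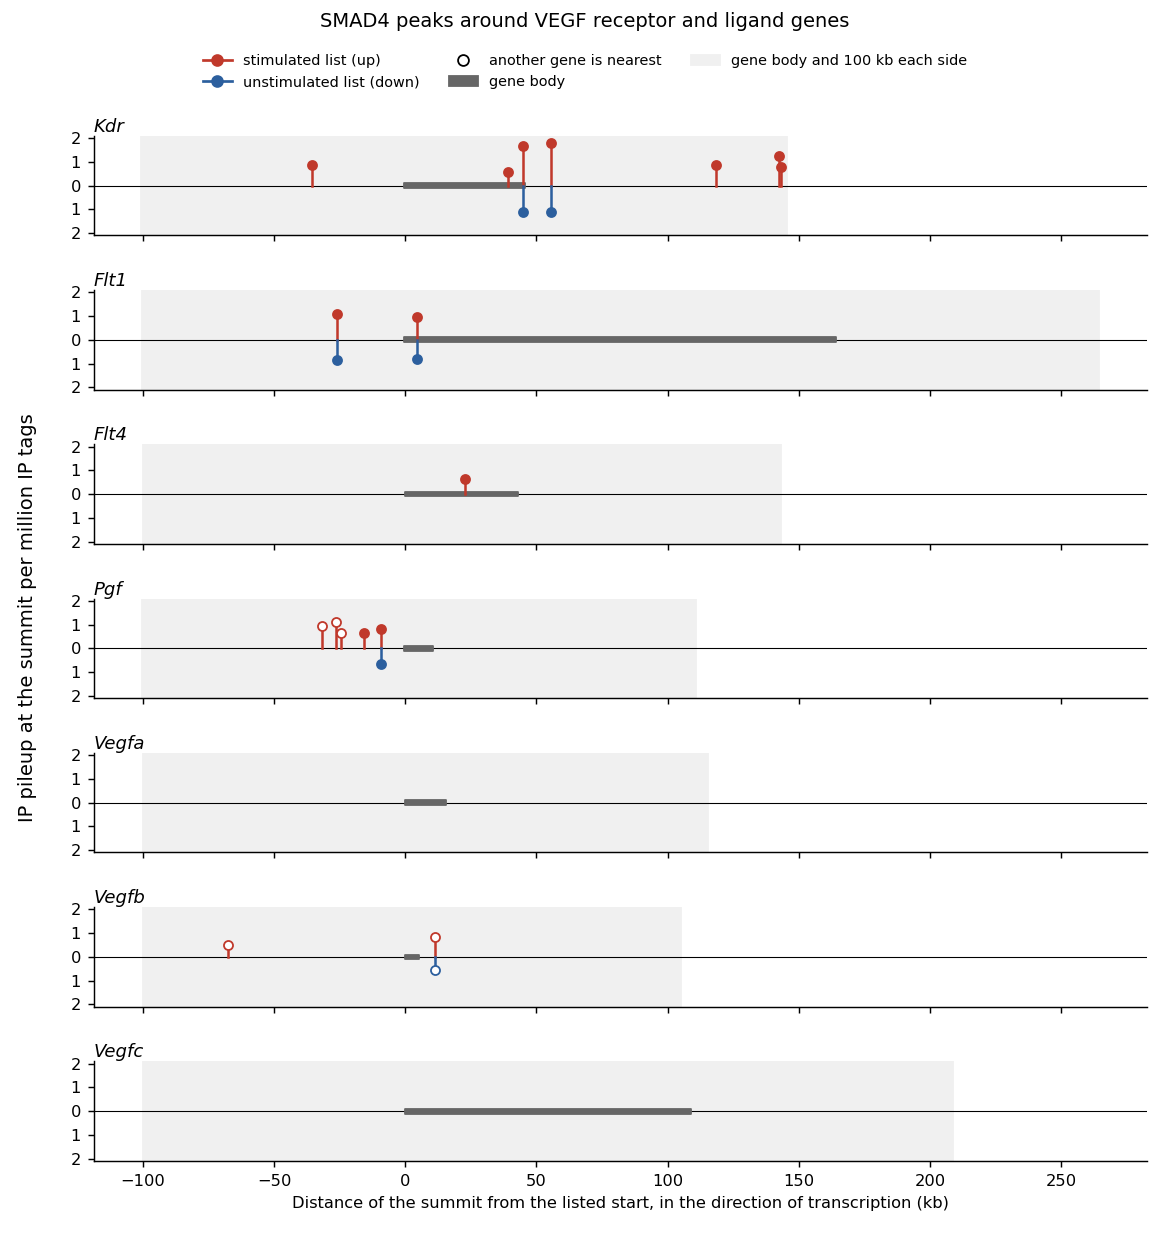
SMAD4 peaks around each gene, placed by the distance of the summit from the listed start in kb along the direction of transcription; height is IP pileup per 1000000 IP tags, up for the stimulated and down for the unstimulated list. Open circles are peaks to which another protein-coding gene was nearer, the dark bar is the gene body and the pale area the window. Kdr carries 7 stimulated and 2 unstimulated peaks, and the Vegfa and Vegfc windows are empty.

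Kdr encodes VEGFR2, the main signalling receptor for VEGF-A (gene body on chromosome 5, 75932827 to 75979072, minus strand). Its strongest peak in the stimulated list lay downstream of the gene, 10.0 kb beyond the 3′ end (75922584 to 75923109). The unstimulated list had an overlapping peak there (75922706 to 75922987), with a lower fold enrichment than its peak inside the gene body. IP pileup counts the tags, each taken as a fragment of 100 bp, that cover the summit. It is given below as scaled pileup, that is, per 1000000 IP tags of the list. The scaled pileup was 1.80 in the stimulated and 1.13 in the unstimulated list there. The authors' fold enrichment over local background was 7.50 and 3.81, and the peak was 526 and 282 bp wide. In the stimulated list it ranked 325 of 4324 by fold enrichment, the highest of the peaks around the 7 genes. The summits of the pair were 133 bp apart.

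A further Kdr peak in both lists lay inside the gene body, 0.911 kb from its 3′ end (stimulated 75933553 to 75933987, unstimulated 75933671 to 75933871). Scaled pileup was 1.68 in the stimulated and 1.11 in the unstimulated list, a higher stimulated level as at the downstream site. The authors' fold enrichment was 4.38 in each list. The local background per 1000000 tags, recovered from pileup and fold enrichment, was 0.365 in the stimulated and 0.240 in the unstimulated list, so background was higher together with pileup. At the downstream site the background went the other way, with 0.219 in the stimulated and 0.283 in the unstimulated list.

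The other 5 Kdr peaks were called in the stimulated list only. A peak inside the gene body, 39.2 kb downstream of the start (75939218 to 75939485), had a scaled pileup of 0.585 and a fold enrichment of 4.10. A peak 35.6 kb upstream of the start (76013921 to 76014133) had 0.877 and 3.98. Its summit was 0.852 kb from the long non-coding RNA gene Gm32727, so Kdr was the nearest protein-coding gene but not the nearest annotated one. These lay on opposite sides of the start, which itself had no peak.

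The remaining 3 lay far downstream, 72.7 to 97.5 kb beyond the 3′ end. The one at 72.7 kb (75860009 to 75860282) had a scaled pileup of 0.877 and a fold enrichment of 4.81. The pair at 97.0 and 97.5 kb (75835735 to 75835988 and 75835126 to 75835340) had scaled pileups of 1.24 and 0.804 and fold enrichments of 4.73 and 2.62. These summits were 545 bp apart, and counted as 1 site they leave Kdr with 6. The window ended just beyond them, and the next stimulated peak outside it was 106 kb from the gene body, nearest to Kdr as well, with a fold enrichment of 4.04. The next unstimulated peak outside was 161 kb away and nearest to Srd5a3.

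Kdr had no other protein-coding gene in its window of 246 kb, so every peak there counted as nearest to it. Of all protein-coding genes, 77 (0.352%) had 7 or more stimulated peaks in the window, which had a median length of 217 kb over all genes. This share counts the pair of Kdr summits 545 bp apart as separate peaks and was not adjusted for window length. Stimulated peaks stood at 2.84 per 100 kb around Kdr and at 0.947 per 100 kb over the 7 windows together, that of Kdr included. Unstimulated peaks stood at 0.812 and 0.334, again with Kdr included in the second value.

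Flt1 encodes VEGFR1, which also exists as a soluble form that traps VEGF-A (chromosome 5, 147561604 to 147726438, minus strand). It had the same 2 sites in both lists and no site in the stimulated list alone. The first lay inside the gene body, 4.47 kb downstream of the start (stimulated 147721503 to 147721663, unstimulated 147721533 to 147721678). Scaled pileup there was 0.950 in the stimulated and 0.793 in the unstimulated list, and the fold enrichment was 4.0 and 3.31. Both peaks were narrow, 161 and 146 bp.

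The second Flt1 site lay 26.0 kb upstream of the start, inside the long non-coding RNA gene Gm35541 (stimulated 147751761 to 147752141, unstimulated 147751973 to 147752102). Scaled pileup was 1.10 in the stimulated and 0.831 in the unstimulated list. The authors' fold enrichment was 6.57 and 3.21, a wider gap than in pileup. The local background per 1000000 tags was 0.146 in the stimulated and 0.245 in the unstimulated list. The window of Flt1 held 1 other protein-coding gene, and no peak lay downstream of the site at 4.47 kb within 100 kb of the gene.

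Flt4 encodes VEGFR3, the receptor for VEGF-C (chromosome 11, 49609679 to 49652739, plus strand). Its window held 1 stimulated and 0 unstimulated peaks. The peak lay inside the gene body, 22.8 kb downstream of the start (49632417 to 49632632), with a scaled pileup of 0.658 and a fold enrichment of 4.44. Its −log10 q was 7.40. The next stimulated peak outside the window was 406 kb from the gene and the next unstimulated peak 561 kb, so the site stood alone in its neighbourhood.

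Pgf encodes placental growth factor, a ligand of VEGFR1 (chromosome 12, 85166637 to 85177785, minus strand). All its peaks lay upstream of the outermost start. The nearest, 9.26 kb upstream, was in both lists (stimulated 85186413 to 85186624, unstimulated 85186480 to 85186585), with scaled pileups of 0.828 and 0.661 and fold enrichments of 3.89 and 3.60. A stimulated peak 15.6 kb upstream (85192738 to 85193016) had 0.658 and 3.01 and was also nearest to Pgf among protein-coding genes. Both were closer to the pseudogene Gm45930 than to Pgf.

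The other 3 stimulated Pgf peaks, 24.3, 26.6 and 31.8 kb upstream, were nearest among protein-coding genes to Eif2b2, a translation initiation factor subunit gene. Their scaled pileups were 0.633, 1.10 and 0.950 and their fold enrichments 3.38, 3.54 and 3.08. The peak 24.3 kb upstream was closer to Gm45930 than to Eif2b2. The 5 stimulated peaks thus spread over the interval between Pgf and Eif2b2, with neighbouring summits 2.28 to 8.71 kb apart. None lay in the Pgf gene body.

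Vegfb encodes VEGF-B, another ligand of VEGFR1 (chromosome 19, 6982472 to 6987651, minus strand). Its window held 18 other protein-coding genes, and no peak in it was nearest to Vegfb. A site 6.17 kb beyond the 3′ end of Vegfb lay inside Ppp1r14b (stimulated 6976267 to 6976416, unstimulated 6976304 to 6976403). Scaled pileup was 0.853 in the stimulated and 0.547 in the unstimulated list, and fold enrichment 4.0 and 3.0. A stimulated peak 67.4 kb upstream, 1.63 kb from Macrod1, had a scaled pileup of 0.512 and a fold enrichment of 3.24. It was the lowest pileup of the 17.

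Vegfa, the main VEGF of vascular growth (chromosome 17, 46016993 to 46032377, minus strand), had its closest peaks far outside the window. The closest stimulated peak was 476 kb from the gene body, nearest to Cul9, and the closest unstimulated peak was 800 kb away, nearest to Bicral. Vegfc, the ligand of VEGFR3 (chromosome 8, 54077532 to 54186454, plus strand), stood in a wider gap. The closest stimulated peak was 4688 kb away and the closest unstimulated peak 6587 kb. The stimulated peaks just outside the 100 kb limit lay at 105 kb from Vegfb (fold enrichment 3.19) and at 106 kb from Kdr, and those just inside were the Kdr peaks at 97.0 and 97.5 kb.

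The next comparison asked how the lists differed at sites they shared. All 6 unstimulated peaks around the 7 genes overlapped a stimulated peak, and 6 of the 17 stimulated peaks (35.3%) overlapped an unstimulated one. Over all peaks the shares were 96.0% of unstimulated and 25% of stimulated peaks. At all 6 sites the scaled pileup was higher in the stimulated list, as it was at 98.4% of the 1078 shared pairs in all. The ratio of stimulated to unstimulated pileup had a median of 1.41 over the 6 sites, and 1.47 over all shared pairs (interquartile range 1.29 to 1.68).

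**Figure D2:**
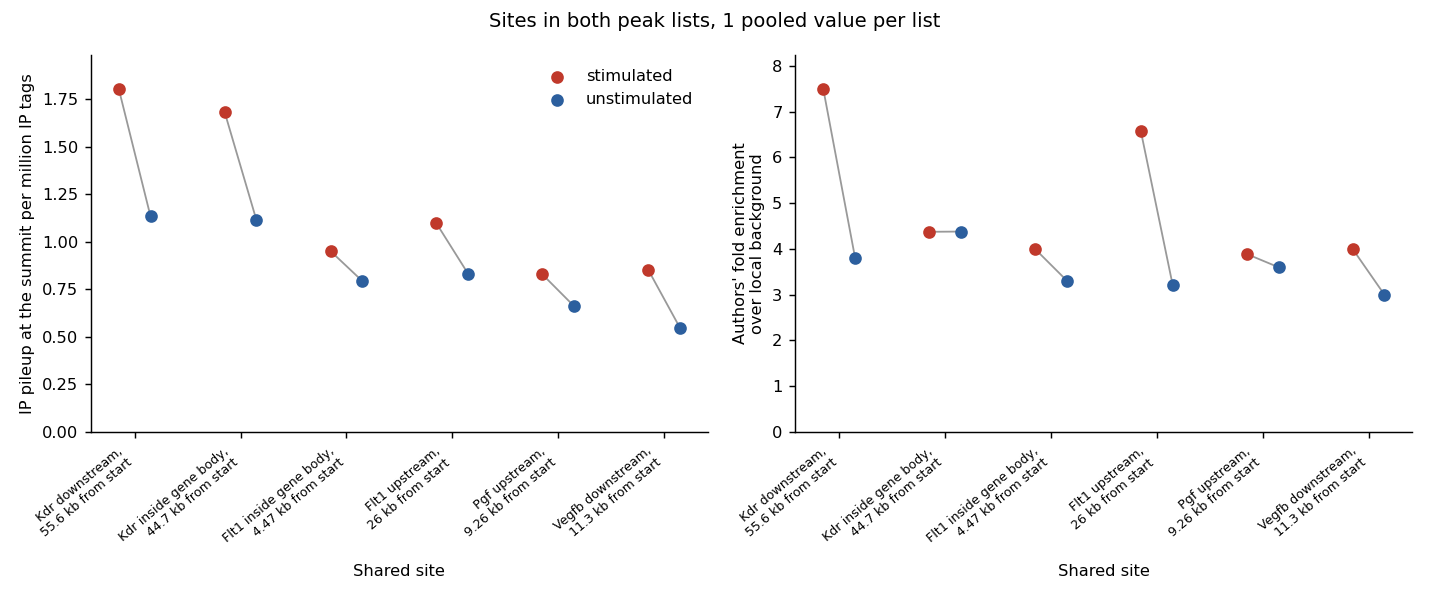
Values of the 6 sites present in both lists, stimulated left and unstimulated right at each site. The left panel gives IP pileup at the summit per 1000000 IP tags, higher in the stimulated list at each site, and the right panel the authors' fold enrichment, which was 4.38 in each list at the Kdr site inside the gene body.

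Both Kdr sites had a counting interval above 1. The downstream Kdr site had a ratio of 1.59 (95% exact binomial interval 1.12 to 2.28) and the site inside the gene body 1.51 (1.05 to 2.17). The summits of the downstream pair were 133 bp apart, so its pileups were read at different positions. Pairing only summits within 100 bp left 5 pairs, without this one. The Flt1 sites had 1.20 (0.755 to 1.90) inside the gene body and 1.32 (0.852 to 2.05) upstream. The shared Pgf site had 1.25 (0.759 to 2.07), and the site in the Vegfb window 1.56 (0.925 to 2.64). So 2 of the 6 intervals lay above 1, against 36.6% of all shared pairs. Every interval of the 6 sites held the median of all shared pairs.

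The Kdr sites were also the ones with most tags, 74 and 69 in the stimulated and 60 and 59 in the unstimulated list, which narrows their intervals. The other 4 sites had pileups of 34 to 45 in the stimulated and 29 to 44 in the unstimulated list. At that depth a ratio of 1.56, as in the Vegfb window, was not separable from equal levels. Differences between the Kdr and the Flt1 sites were not tested, and their intervals overlap widely.

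**Figure D3:**
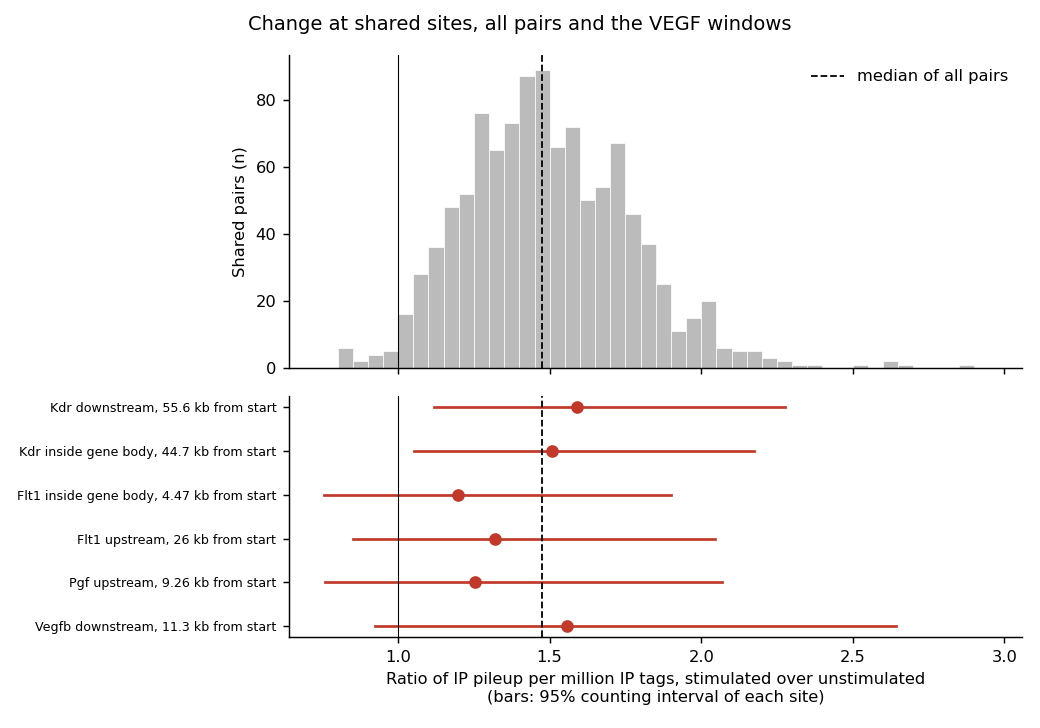
Ratio of IP pileup per 1000000 IP tags, stimulated over unstimulated. The upper panel is a histogram of all 1078 shared pairs and the lower panel gives the 6 sites of the VEGF windows with their 95% counting intervals. The dashed line is the median of all pairs (1.47), which lies within the interval of each of the 6 sites.

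The last comparison concerned the 11 stimulated peaks without an unstimulated counterpart, 5 at Kdr, 4 at Pgf and 1 each at Flt4 and Vegfb. Their median scaled pileup was 0.804 (range 0.512 to 1.24), and that of all 3245 such peaks was 0.633. Their median fold enrichment was 3.54 (2.62 to 4.81), below the 4.29 of all such peaks, and their median local background was 0.202 per 1000000 tags, above the 0.122 of all such peaks. They were also wider, with a median of 254 bp against 180 bp. These medians over 11 peaks are given as a description.

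An absent peak is not an absent signal, so the lowest unstimulated level that could have been called at each site was computed. It used the Poisson tail at the lowest −log10 p of the unstimulated list (6.03) and the site's stimulated background, scaled to the unstimulated depth. The limit came to 50.1% to 89.2% of the stimulated level at the 11 sites. As a share it was lowest at the Kdr peak 97.0 kb beyond the 3′ end, where an unstimulated scaled pileup of 0.623 would have sufficed, against a stimulated level of 1.24. At the neighbouring Kdr peak, 97.5 kb beyond the 3′ end, the limit was 0.717 against a stimulated 0.804. At Flt4 it was 0.415 against a stimulated 0.658.

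At equal level and background per tag, all 11 sites would thus have reached the unstimulated cutoff, as would all 3245 stimulated peaks without a counterpart, since the unstimulated list had more tags. At the 6 shared sites of these genes the background was up to 1.68 times as high in the unstimulated list. With that factor 6 of the 11 would have reached the cutoff, beside 2007 of the 3245. The 6 were 4 of the 5 Kdr sites, the Flt4 site and 1 Pgf site. Over all 1078 shared pairs the background was up to 2.95 times as high. With that factor none of the 11 (0) would have reached the cutoff, beside 373 of the 3245. Levels below the limits were not visible in the unstimulated list.

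**Figure D4:**
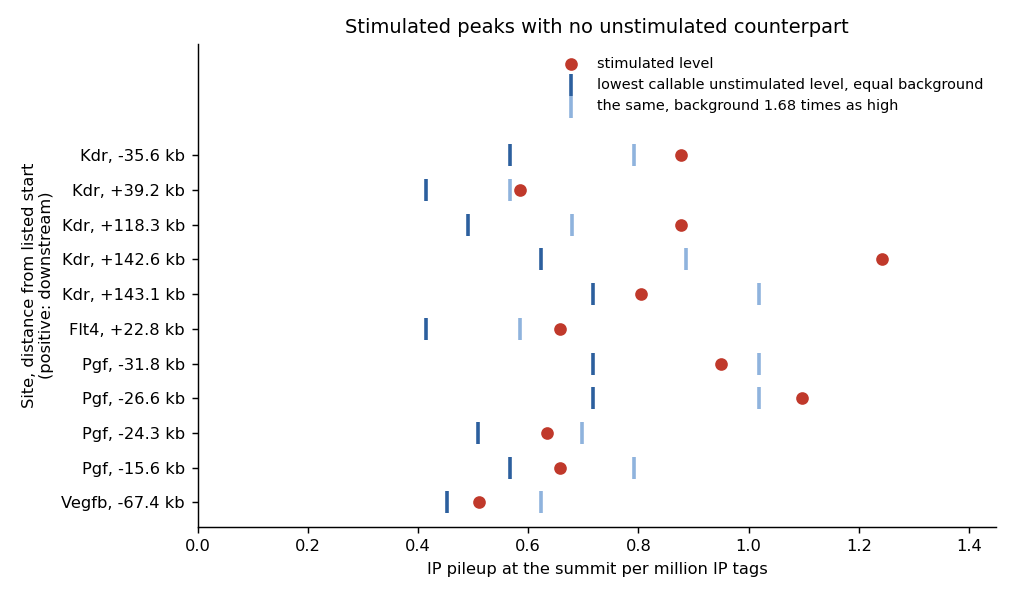
The 11 stimulated peaks with no unstimulated counterpart. Red points are the stimulated IP pileup per 1000000 IP tags, dark blue ticks the lowest unstimulated level that could have been called at equal background, and pale ticks the same at a background 1.68 times as high; all 11 points lie right of the dark ticks and 6 lie right of the pale ticks.

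Other genes of VEGF signalling were described for a list of 48, with the co-receptors, signal transducers and target genes. Of these, 17 were nearest to a stimulated and 6 to an unstimulated peak within 100 kb, beside 12.2% and 3.79% of all protein-coding genes. The highest stimulated fold enrichments were 9.27 inside Ptprb, a phosphatase that dampens VEGFR2 and TIE2 signalling, and 7.54 at 18.7 kb from Apln, which encodes the tip cell peptide apelin. Then came Epas1, the hypoxia factor HIF-2α that drives VEGF transcription (7.12, inside the gene), Igfbp3 (6.67, 19.9 kb away), the focal adhesion gene Pxn (6.42, inside) and Nfatc1, a transcription factor of the calcineurin branch (6.22, 2.34 kb away). Apln, Epas1 and Pxn had these sites in both lists.

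The VEGF co-receptor gene Nrp1 had 1 stimulated peak inside its gene body (fold enrichment 5.71, scaled pileup 0.560) and no unstimulated one. Its relative Nrp2 and the further ligand gene Vegfd were nearest to no peak of either list. The other genes nearest to a stimulated peak were Plxnd1, Esm1, Dll4, Plcg1, Pik3ca, Ptk2, Ptprj, Nfatc2, Rcan1 and Cdh5. Of these, Ptk2, Rcan1 and Cdh5 were also nearest to an unstimulated peak.

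The cell type could be set beside peak positions only, since RNA was not measured here. Of 10 endothelial marker genes, 8 were nearest to a stimulated and 4 to an unstimulated peak, beside 12.2% and 3.79% of all protein-coding genes. Of 8 marker genes each, the counts were 1 and 1 for mural cells, 2 and 1 for leukocytes and 1 and 0 for pancreatic islet and acinar cells. A count of 1 of 8 is near the stimulated share of all genes. The stimulated 2 of 8 for leukocytes and the unstimulated 1 of 8 for mural cells and leukocytes lie above the respective shares. Counts this small were not tested.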

How the data were processed

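Per the file headers, the authors called peaks with MACS2 2.1.0.20140616 on merged IP against merged input libraries. They kept 1 tag per position, set the fragment length to 100 bp and used a q cutoff of 0.01. Tags were 140 bp (stimulated) and 146 bp (unstimulated), longer than that fragment length, and band width was 200 and 300. Per the submitters' processing notes the build was mm10, with MACS2 and HOMER; no source used here names the aligner.

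The pileup, a coverage signal deposited without depth scaling, was divided here by the IP tags of its list and multiplied by 1000000. The deposited fold enrichment is a ratio of pileup to local background, from which that background was recovered; for every peak of both lists the deposited −log10 p was recomputed from it to within 1% with a Poisson tail. Positions are 1-based on mm10. Gene bodies, strands and starts came from RefSeq GRCm38.p6, in which all 7 genes and all list genes matched.

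Peaks were paired at an overlap of 1 bp, closest summits first. Intervals are exact binomial (Clopper-Pearson, 95%) on the pileups of a pair (scipy 1.17.1). No test was run between conditions, because each had 1 pooled set of libraries. Distances run from a summit to the gene body, or to the outermost listed start where so stated. Peaks described in full were, for each gene, the stimulated peak of highest fold enrichment, shared pairs, peaks in or within 1 kb of the gene body and peaks to which the gene was nearest. Of the list of other pathway genes, the 6 with the highest stimulated fold enrichment were named with values; others were named for completeness. Nrp1 values were added after they were seen. The interval code was tested on simulated counts, the pairing code on shifted copies of deposited peaks, and the window code against a direct count. The genes and lists were chosen with earlier results of these data known. The alternatives were other windows, q minimums, list lengths, nearest-gene rules, overlap rules and scalings.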

Additional observations from a re-analysis of the deposited data

How the results depend on the processing

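A 25 kb window left 9 stimulated peaks and 5 unstimulated ones. Cut by −log10 q to as many peaks as the unstimulated list has, the stimulated list left 4 stimulated peaks, 2 genes with a stimulated peak (Kdr and Flt1) and 3 shared sites. With non-coding genes and pseudogenes included in the nearest-gene rule, 3 genes were nearest to a stimulated and 2 to an unstimulated peak; Pgf was lost in both lists. By the authors' fold enrichment the ratio at the Kdr site inside the gene body was 0.999, with a higher local background beside it. With the unstimulated background raised by the highest ratio at these genes' shared sites, 6 of 11 stimulated-only sites could have been called (2007 of all 3245 such peaks). Raised by the highest ratio at all shared pairs, 0 of 11 could have been called (373 of 3245). Both settings were chosen after the data were seen. So were the count of summits within 1 kb as 1 site (16 stimulated peaks) and the count of peaks nearest to a member (12 stimulated and 5 unstimulated). Other alternatives moved counts by less than 1.5 times and kept the median ratio at shared sites between 1.27 and 1.41. Scaling by local background gave the same median ratio, since the median background ratio of all shared pairs was 1.00. No paired analysis was possible because the authors merged the replicate libraries before calling peaks, and for the same reason no replicate could be left out. Pileups of 21 to 74 in the stimulated list limit each site's precision.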
